A study of Caenorhabditis elegans with 6 samples.

Results

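A set of 10 genes that act when a dying cell is engulfed and its corpse is broken down was followed in small RNA libraries of Caenorhabditis elegans embryos. The genes were chosen by name and function, with earlier results of these data known, and make up 10 of the 32238 genes counted. They are ced-1, ced-6 and ced-7, which recognise the corpse and pass the signal on; ced-2, ced-5, ced-10, ced-12 and psr-1, which drive the engulfing cell's cytoskeleton through a Rac GTPase; and cps-6 and wah-1, whose mitochondrial products break down corpse DNA. The embryos were of 2 genotypes, the double mutant dot-1.1(knu339); ced-3(n1286) and the single mutant ced-3(n1286), with 3 libraries each that the labels call biological replicates. The animals were grown at 20 °C on E. coli OP50, and embryos were freed from synchronised egg-laying adults with hypochlorite. Inserts of 18 to 40 bases were selected and read with single reads of 50 bases. The loss of dot-1.1 rests on 1 allele, both genotypes carry the ced-3 mutation, and no library with a working ced-3 gene was analysed here. Nothing in the labels tells whether replicates came from separate cultures, so the p-values speak to the spread among these libraries and no further.

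CED-3 is the caspase that executes programmed cell death in the worm, so in both genotypes few cells would be expected to die and be engulfed. DOT-1.1 belongs to the DOT1 family of histone methyltransferases, which modify a lysine in the globular part of histone H3. Dying cells expose phosphatidylserine, and neighbouring cells take them up through a pair of partly redundant routes that meet at the GTPase CED-10. Small RNAs that lie antisense to a messenger RNA in worms include small interfering RNAs made by RNA-dependent RNA polymerases and loaded into Argonaute proteins. Small RNAs on the sense strand can be pieces of the messenger RNA itself. The comparison asks whether loss of dot-1.1 alters small RNAs of either kind at these genes, and neither kind measures the messenger RNA or the protein. The counts carry no read length or first base, so the classes of small RNA cannot be told apart.

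Total counts ran from 19206363 to 26409182 a library on the sense strand and from 4891289 to 6568937 on the antisense strand. Of the sense counts, microRNA genes held 72.9%, 79.0% and 89.5% in the double mutant and 77.8%, 92.4% and 86.7% in the single mutant. The embryonic microRNA mir-35 alone took 13% to 16.5% of sense counts in all 6 libraries, which fits the labelled tissue. The third double mutant library and the second single mutant library, the richest in microRNA within their genotypes, also had the fewest counts at the 10 genes. Sense counts summed over the 10 genes were 239, 155 and 107 in the double mutant, against 423, 125 and 296 in the single mutant. Antisense counts summed to 262, 348 and 217 in the double mutant, against 293, 257 and 311 in the single mutant. Of the mutated genes, dot-1.1 had sense counts of 23, 40 and 32 in the double mutant and 75, 66 and 55 in the single mutant. Scaled to the library these overlapped, and the log2 fold change was -0.91 ± 0.52 (SE; edgeR adjusted p = 0.618). Sense counts of ced-3 were 4, 3 and 5 in the double mutant and 5, 1 and 4 in the single mutant. Small RNA counts do not measure the messenger RNA of either gene, so that they serve as no check of the genotypes. The tissue was whole embryos, so that fewer cells of a type and less small RNA per cell cannot be told apart.

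All 10 genes are protein-coding genes on chromosomes I, III and IV of the genome build WBcel235. Chromosome I holds ced-1 (11851554 to 11868105, minus strand), ced-12 (10222881 to 10227009, minus) and cps-6 (4446586 to 4448461, minus). On chromosome III lie ced-6 (5595771 to 5598061, plus), ced-7 (9570390 to 9580089, minus) and wah-1 (11990167 to 11999590, plus). Chromosome IV holds ced-2 (1597318 to 1601621, plus), ced-5 (10484110 to 10492913, plus), ced-10 (3506328 to 3509527, minus) and psr-1 (4653262 to 4655850, plus). In ced-1, ced-2, ced-10 and ced-12 no exon base lay across from another gene's exon, and in the other 6 the shared stretch ran from 1 base (wah-1 and Y56A3A.33) to 83 bases (ced-6 and C05D2.10), at most 4.91% of the exon bases. For ced-5, whose antisense counts came to 680 over the 6 libraries, the partner tax-6 shares 45 bases and had 127 sense counts over its whole length. For ced-7, C48B4.13 shares 71 bases and had 0 sense counts. For ced-6, C05D2.10 shares 83 bases and had 155 sense counts over its whole length, against 143 antisense counts of ced-6. The part of the ced-6 antisense counts that lies in the shared stretch cannot be told apart from reads of C05D2.10. How large that part is was not tested. The stretch of cps-6 shared with eif-3.H was 28 bases long, and eif-3.H had 74 sense counts against 163 antisense counts of cps-6. For psr-1 and col-111 it was 60 bases, with 103 sense counts of col-111 against 165 antisense counts of psr-1. Y56A3A.33 had 61 sense counts against 80 antisense counts of wah-1. All these partner counts are over whole genes, of which the shared stretch is only a part. The Rac gene ced-10 has close paralogs in rac-2 and mig-2, and reads that fit more than 1 of them may be assigned to any. Over the 6 libraries rac-2 had 15 sense and 9 antisense counts, mig-2 had 97 and 28, and ced-10 had 120 and 39.

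None of the 10 genes changed on either strand past the threshold, a Benjamini-Hochberg adjusted p under 0.05 in edgeR's quasi-likelihood test. On the antisense strand 9 of the 10 passed the filter on low counts, and 0 were called higher and 0 lower, where the background over all 7297 genes tested was also 0% higher and 0% lower. On the sense strand 8 of the 10 passed the filter, and again 0 were called in either direction, against a background of 0% in each over 7680 genes. At an unadjusted p under 0.05 there were 0 of 9 members on the antisense strand, where the background was 5.26%, and 1 of 8 on the sense strand, where it was 8.12%. The 1 gene was wah-1, with fewer sense counts in the double mutant. DESeq2 on the same genes also called 0 members, where its background was 0% in each direction on the sense strand and 0.0137% higher and 0.096% lower on the antisense strand.

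**Figure D1:**
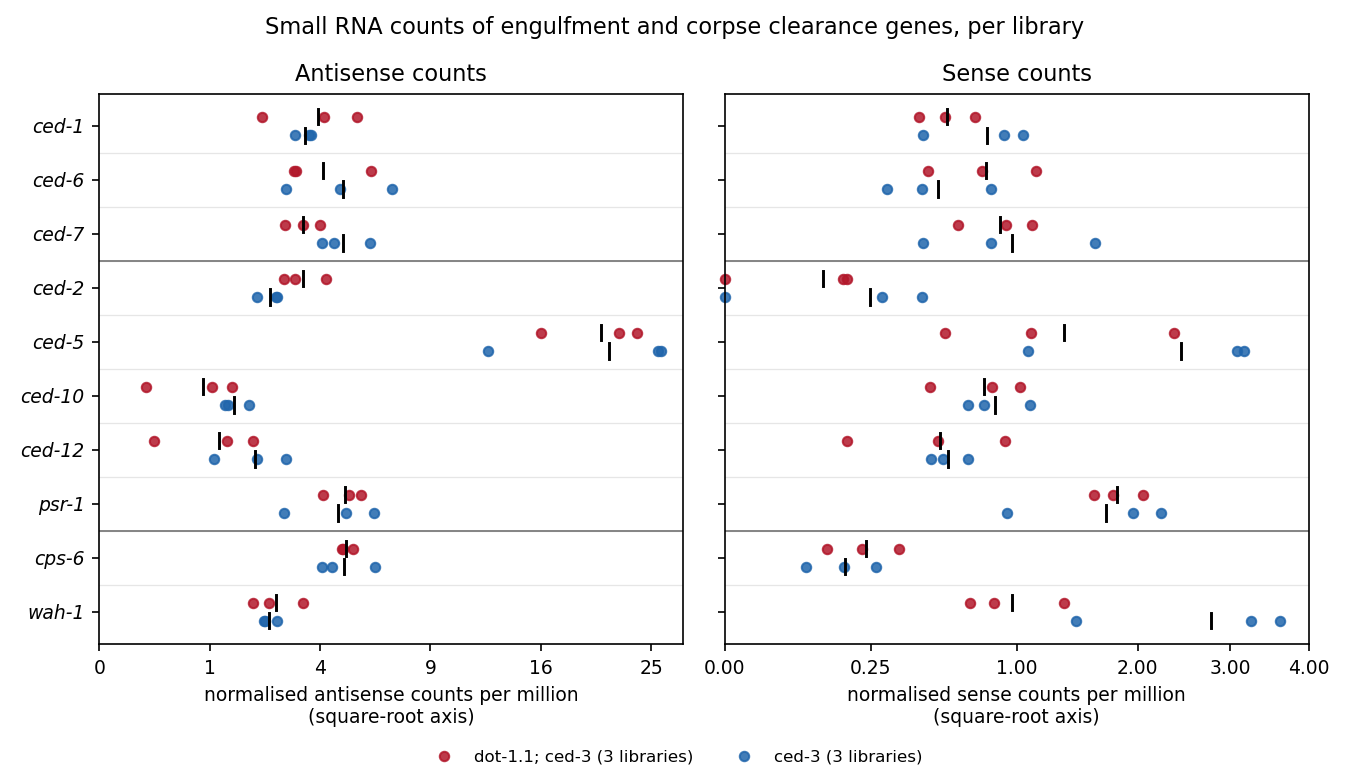
Normalised antisense (left) and sense (right) small RNA counts per 1000000 of the TMM-scaled library size, on square-root axes, for the 10 genes in 3 double mutant libraries (red, upper row of each gene) and 3 single mutant libraries (blue, lower row). Points are libraries and black bars group means; horizontal lines part the recognition, Rac and corpse DNA groups. The red and blue points lie apart in 1 sense row, wah-1, and in 2 antisense rows, ced-7 and ced-2.

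Levels between genes were compared as normalised counts per 1000000 of the scaled library size and per 1000 bases of gene length. On this scale the antisense levels fell into an upper set of 5 genes and a lower set of 5. Averaged over the 6 libraries, cps-6 was highest at 4.87 ± 0.744 (SD), followed by ced-5 at 3.69 ± 0.98, psr-1 at 3.39 ± 0.844, ced-2 at 2.65 ± 0.685 and ced-6 at 2.64 ± 1.03. The lower set ran from wah-1 at 0.947 ± 0.194 through ced-1 (0.733), ced-7 (0.726) and ced-10 (0.719) to ced-12 at 0.680 ± 0.389. Within each set the ranges of neighbouring genes overlapped, whereas the lowest library of ced-6 (1.69) lay above the highest of wah-1 (1.31). The median of 19729 protein-coding genes was 0.556, so the lower set was close to the middle of the protein-coding genes and the upper set at the 86.0th to 93.5th percentile. The sets do not follow the roles of the genes. Each of the recognition, Rac and corpse DNA groups has members in both.

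On the sense strand the order was different and the ranges of every pair of neighbours overlapped. Within libraries, psr-1 was above wah-1 in all 6 and ced-10 above ced-6 in 5 of 6. The other neighbours kept their order in 2 to 4 of 6 libraries. The per-length sense level was highest for psr-1 (1.24 ± 0.324, SD over 6 libraries), followed by wah-1 (0.719 ± 0.48) and ced-10 (0.495 ± 0.132), and lowest for ced-1 (0.137 ± 0.049). The protein-coding median was 0.142, so ced-1 and ced-7 (0.163) were close to it, while psr-1 was at the 94.7th percentile. For these genes, then, cps-6 led on the antisense strand and was seventh on the sense strand. Normalised sense and antisense counts are each relative to their own table, so their sizes are not set against each other here.

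The corpse recognition group holds ced-1, which encodes the transmembrane engulfment receptor of the engulfing cell, ced-6, its adaptor protein, and ced-7, an ABC transporter that acts in both the dying and the engulfing cell. Antisense counts of ced-1 were 31, 28 and 9 in the double mutant and 24, 17 and 17 in the single mutant. Scaled to the library, they averaged 3.93 ± 1.65 counts per 1000000 in the double mutant and 3.48 ± 0.293 in the single mutant (SD, n = 3 each), and the groups overlapped. The log2 fold change was 0.19 ± 0.40 (SE; edgeR adjusted p = 0.951). Antisense counts of ced-6 were 18, 21 and 25 in the double mutant, against 19, 22 and 38 in the single mutant. The third library was the highest of its genotype in both, also after scaling, and the fold change was within its error (-0.26 ± 0.45, edgeR adjusted p = 0.941).

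For ced-7 the antisense counts were 16, 27 and 14 in the double mutant and 40, 21 and 22 in the single mutant. Raw counts overlapped between the genotypes, but scaled values did not. They were 2.82, 3.99 and 3.39 counts per 1000000 in the double mutant, against 6.03, 4.53 and 4.06 in the single mutant. The log2 fold change was -0.52 ± 0.34 (SE), with a 95% interval from -1.30 to 0.27 and an edgeR adjusted p of 0.849. Groups that lie apart in this direction made up 5% of the antisense genes tested, and ced-7 was 1 of the 9 members tested. On the sense strand ced-1 had 18, 10 and 8 counts in the double mutant and 39, 6 and 22 in the single mutant. The log2 fold changes there were -0.51 ± 0.48 for ced-1, 0.49 ± 0.53 for ced-6 and -0.15 ± 0.52 for ced-7, with edgeR adjusted p of 0.769, 0.802 and 0.951. All 3 sense intervals spanned 0, and the one for ced-6 reached from -0.69 to 1.67.

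The Rac group follows the chain from CED-2, an adaptor of the CrkII family, through CED-5 and CED-12, which correspond to DOCK180 and ELMO and together activate Rac, to CED-10, the Rac GTPase itself. PSR-1, a receptor that binds phosphatidylserine, feeds into the same chain. The largest antisense counts of the 10 genes were those of ced-5, with 91, 150 and 98 in the double mutant and 82, 120 and 139 in the single mutant. After scaling these were 16, 22.2 and 23.7 counts per 1000000 in the double mutant, against 12.4, 25.9 and 25.7 in the single mutant. In each genotype the first library was the lowest, and the double mutant values lay within the range of the single mutant values. The log2 fold change was -0.04 ± 0.40 (SE; edgeR adjusted p = 0.986), and its 95% interval ran from -0.95 to 0.86.

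Antisense counts of ced-2 were 24, 19 and 13 in the double mutant and 17, 12 and 11 in the single mutant. The raw ranges overlapped, and the scaled values, 4.23, 2.81 and 3.15 counts per 1000000 in the double mutant against 2.56, 2.59 and 2.03 in the single mutant, did not. The log2 fold change was 0.50 ± 0.36 (SE), with an edgeR adjusted p of 0.861. Groups apart in this direction made up 5.26% of antisense genes tested, and ced-2 was 1 of the 9 members. On the sense strand ced-2 had only 4, 4 and 0 counts in the double mutant and 17, 0 and 7 in the single mutant, and it did not pass the filter. A library with 0 counts in each genotype allows no fold change of use.

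The genes ced-5 and ced-12 encode the parts of 1 exchange factor for Rac. Antisense counts of ced-12 were 11, 9 and 1 in the double mutant and 19, 5 and 11 in the single mutant, a log2 fold change of -0.72 ± 0.66 (SE; edgeR adjusted p = 0.891). It was -1.21 without the first double mutant library, -0.32 without the third and -0.38 without the first single mutant library. Sense counts of ced-5 were 58, 25 and 8 in the double mutant, against 115, 14 and 76 in the single mutant, and the lowest value of each genotype was in its microRNA-rich library. Their log2 fold change was -0.85 ± 0.59, with a 95% interval from -2.17 to 0.48 (edgeR adjusted p = 0.674). It was -1.56 without the first double mutant library and -0.52 without the third. Sense counts of ced-12 gave -0.14 ± 0.58 (edgeR adjusted p = 0.964). The gene ced-12 shares 24 exon bases with csnk-1 on the same strand.

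The Rac gene ced-10 had the fewest antisense reads of the 10 genes, with 1, 7 and 6 counts in the double mutant and 9, 6 and 10 in the single mutant. It did not pass the filter on that strand. Its sense counts were 25, 19 and 7 in the double mutant and 41, 9 and 19 in the single mutant, and the log2 fold change was -0.13 ± 0.46 (edgeR adjusted p = 0.955). For the receptor gene psr-1 the genotypes overlapped on both strands. Its sense counts were 39, 40 and 29 in the double mutant and 35, 29 and 47 in the single mutant, and its antisense counts were 29, 38 and 17 in the double mutant and 41, 13 and 27 in the single mutant. The log2 fold changes were 0.10 ± 0.45 on the sense and 0.08 ± 0.38 on the antisense strand, with edgeR adjusted p of 0.967 and 0.978.

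**Figure D2:**
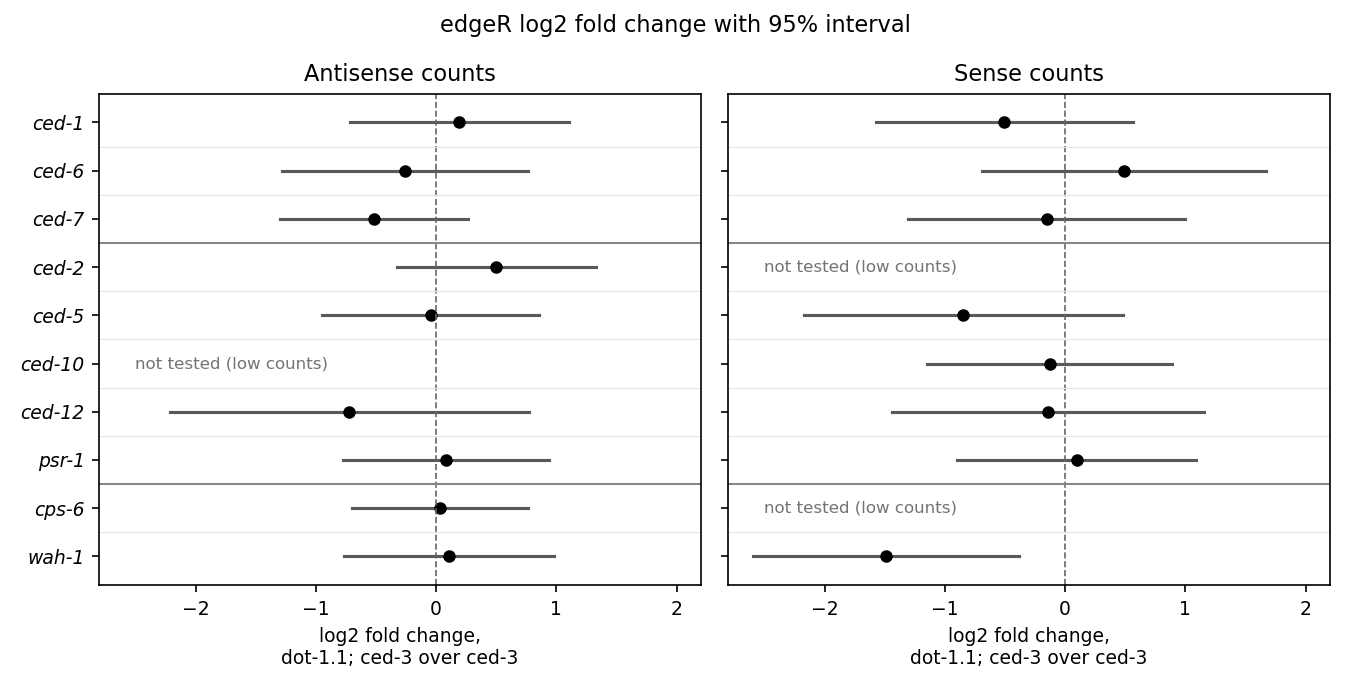
Log2 fold change of the double mutant over the single mutant with its 95% interval, from edgeR over 3 libraries each, for antisense (left) and sense (right) counts of the 10 genes; genes with too few counts are marked as not tested. The interval of wah-1 sense counts (-2.6 to -0.38) is the one that does not span 0, before adjustment for the number of genes tested.

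The corpse DNA pair consists of CPS-6, the worm endonuclease G, and WAH-1, the worm counterpart of apoptosis-inducing factor, which works with CPS-6 and, when released from mitochondria, also takes part in exposing phosphatidylserine. The scaled antisense level of cps-6 had the smallest SD relative to its mean of the 10 genes. Its raw antisense counts were 30, 33 and 20 in the double mutant and 27, 29 and 24 in the single mutant. Scaled to the library they averaged 5.0 ± 0.245 counts per 1000000 in the double mutant and 4.92 ± 1.17 in the single mutant (SD, n = 3 each). The log2 fold change was 0.03 ± 0.32 (SE; 95% interval -0.70 to 0.77; edgeR adjusted p = 0.987), the smallest error of any member on either strand. Sense counts of cps-6 were 3, 5 and 5 in the double mutant and 10, 1 and 4 in the single mutant and did not pass the filter.

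Sense counts of wah-1 were 33, 16 and 12 in the double mutant and 54, 47 and 78 in the single mutant. Every double mutant library lay below every single mutant library, in raw counts as well as after scaling. Scaled values were 1.35, 0.706 and 0.851 counts per 1000000 in the double mutant and 1.44, 3.62 and 3.24 in the single mutant, so the gap between the nearest libraries was small. The means were 0.969 ± 0.338 in the double mutant and 2.77 ± 1.16 in the single mutant (SD, n = 3 each). The log2 fold change was -1.49 ± 0.50 (SE), with a 95% interval from -2.6 to -0.38 and an unadjusted p of 0.0135 in edgeR. After adjustment over the 7680 genes tested it did not pass (edgeR adjusted p = 0.592). Genes with a lower value at an unadjusted p under 0.05 made up 2.41% of those tested, and genes whose groups lay apart in this direction 5.79%.

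The antisense counts of the same gene overlapped between the genotypes. They were 11, 16 and 14 in the double mutant and 15, 12 and 12 in the single mutant, with scaled means of 2.57 ± 0.747 counts per 1000000 in the double mutant and 2.36 ± 0.204 in the single mutant (SD, n = 3 each). Their log2 fold change was 0.11 ± 0.39 (SE; edgeR adjusted p = 0.972). The direction of the wah-1 sense difference was the same in all 14 other settings, with log2 fold changes from -1.93 without the first single mutant library to -1.14 without the 2 microRNA-rich libraries. The edgeR or DESeq2 adjusted p ran from 0.234 to 0.999 in these settings, so none of them called it. Because the libraries already lay apart before and after scaling, leaving libraries out or rescaling could hardly turn the sign. The shared direction therefore adds no support of its own.

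**Figure D3:**
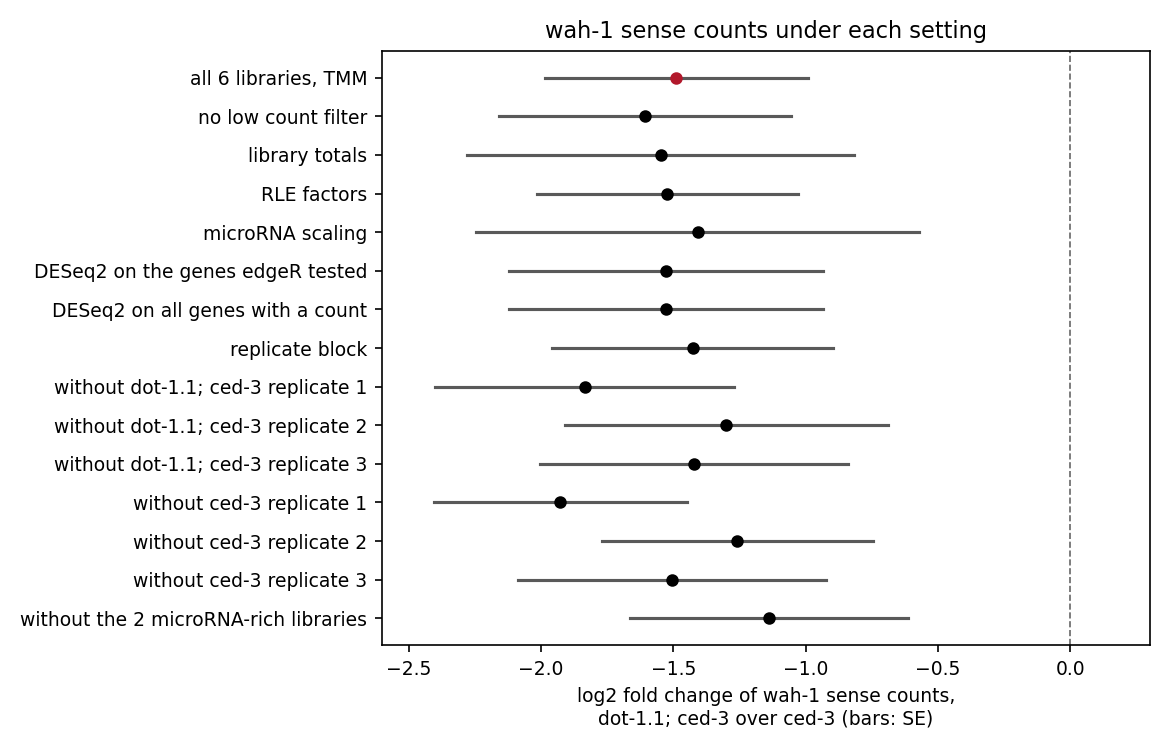
Log2 fold change of wah-1 sense counts, double mutant over single mutant, with its standard error (bars), with all 6 libraries (red) and under 14 other settings (black). All points lie below 0, from -1.93 to -1.14.

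Whether antisense counts of a gene changed otherwise than its sense counts was tested within libraries, as a strand by genotype interaction. All 10 members could be tested, and 0 passed in either direction, against a background of 0% higher and 0% lower over 11896 genes. At an unadjusted p under 0.05 there was 1 of 10, where the background was 5.62%. It was wah-1, whose antisense change exceeded its sense change by 1.52 ± 0.73 on the log2 scale (SE; 95% interval 0.03 to 3.01; edgeR adjusted p = 0.863). The antisense log2 fold change of wah-1 was 0.11 and its sense log2 fold change -1.49. The estimate thus rests mostly on the sense counts already tested above and is not separate evidence. The largest estimate was that of ced-2, 1.54 ± 1.02 (edgeR adjusted p = 0.937), which rests on 32 sense counts in all. Those of cps-6 and ced-10 rest on 28 sense and 39 antisense counts. These counts, and the sense counts of ced-2, had not passed the filter when each strand was tested by itself. Of the 10 estimates 4 were above 0, against 52.5% of all genes tested. Apart from those of wah-1 and ced-2, they ran from -0.75 (ced-6) to 0.93 (ced-5). With 1 library left out at a time, the ced-6 estimate ran from -1.47 without the first to -0.18 without the third single mutant library. That of ced-5 ran from 0.41 without the third double mutant or the first single mutant library to 1.69 without the first double mutant library.

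Pooled over the 6 libraries, the antisense share of a gene's raw counts ranged from 24.5% in ced-10 to 85.3% in cps-6. The exact 95% binomial interval was 18.1% to 32.0% for ced-10 (39 of 159 counts) and 79.5% to 90.0% for cps-6 (163 of 191). These intervals cover counting error only, since reads without molecular identifiers are not independent molecules. In the pooled counts sense reads also prevailed in wah-1 (25% antisense), and antisense reads in ced-2 (75%) and ced-5 (69.7%). Shares of single libraries ran from 13.3% to 53.8% for wah-1, from 50% to 100% for ced-2 and from 41.6% to 92.5% for ced-5. The middle part ran from psr-1 (43.0%) and ced-12 (43.8%) through ced-7 (49.5%) and ced-1 (55.0%) to ced-6 (60.9%). Among 7665 protein-coding genes with at least 100 counts in both tables together, the median was 50.9% and the quartiles were 28.1% and 73.3%. The pooled shares of ced-10 and wah-1 were under the lower quartile and those of ced-2 and cps-6 over the upper. Single libraries varied, and 3 of 6 libraries of ced-10 and 4 of 6 of wah-1 were under the lower quartile, and 4 of 6 of ced-2 and 5 of 6 of cps-6 over the upper.

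By genotype, the antisense share of wah-1 averaged 42.9% ± 15.7 in the double mutant and 18.5% ± 4.5 in the single mutant (SD, n = 3 each), and no double mutant library lay below a single mutant one. Shares lay apart in this direction in 7.64% of the 7626 protein-coding genes with at least 100 counts in all and a count in every library. The wah-1 shares are made of the same sense and antisense counts as the tests above, so they are not separate evidence either. The share of cps-6 was 85.9% ± 5.51 in the double mutant and 85.1% ± 11.9 in the single mutant. Of the counts summed over the 10 genes, given above, the antisense part was smallest in the first library of each genotype, which was also the poorest of its genotype in microRNA. The part of the microRNA content in these shares was not tested.

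**Figure D4:**
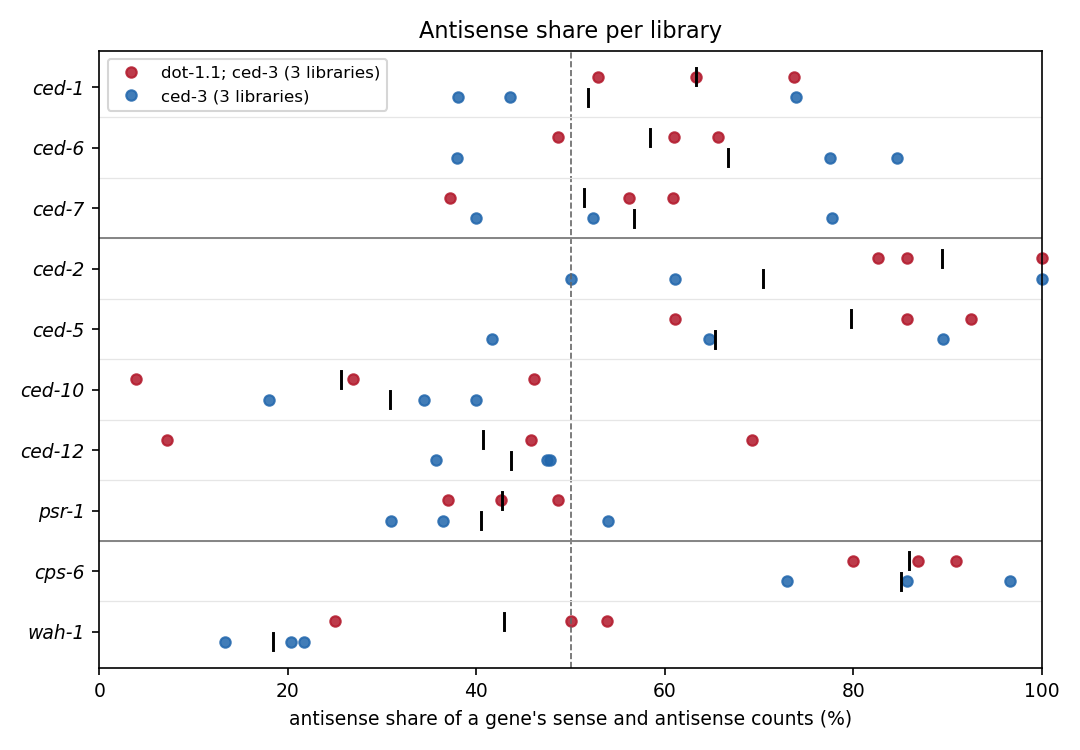
Antisense share of the raw sense plus antisense counts of each gene, in percent, in 3 double mutant (red, upper row) and 3 single mutant libraries (blue, lower row), with group means as black bars and 50% as the dashed line. The genotypes lie apart in the wah-1 row (means 42.9% in the double and 18.5% in the single mutant), and cps-6 is above 50% in all 6 libraries.

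On the antisense strand 5 of the 9 tested were above 0 and 4 below, with a median log2 fold change of 0.03, against 51.8% above 0 and a median of 0.02 over all genes tested. On the sense strand 2 of 8 were above 0 and 6 below, with a median of -0.15, against 49.2% below 0 and a median of 0.01. Scaled by library totals in place of TMM factors, the sense median was -0.62 for the members and -0.27 for all genes, so that the members' median was below that of all genes under both scalings. It was also below it under the other 2 scalings, at -0.18 against -0.01 with RLE factors and -0.55 against -0.17 with scaling by microRNA counts. A change of scaling moves the members and all genes together, so these scalings are not separate evidence of a shift. Summed over all 10 genes, scaled sense counts were 8.07 ± 1.53 per 1000000 in the double mutant and 11.1 ± 1.36 in the single mutant, and scaled antisense counts were 50.1 ± 3.43 in the double mutant and 52.3 ± 7.12 in the single mutant (SD, n = 3 each). The genotypes overlapped in both sums, on the sense strand with 9.78, 6.84 and 7.59 in the double mutant against 11.3, 9.62 and 12.3 in the single mutant. The largest differences between sense means were those of wah-1 (0.969 in the double against 2.77 in the single mutant) and ced-5 (1.35 against 2.44). Sense means of ced-6, psr-1 and cps-6 were higher in the double mutant.

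A wider list of 54 genes of corpse clearance covers exposure of phosphatidylserine, Rac and actin regulation, closing and maturation of the phagosome, and the nucleases. On the sense strand 43 of them were tested, and 0 rose and 0 fell past the threshold in edgeR or DESeq2. At an unadjusted p under 0.05 in edgeR there was 1 of the 43, where the background over all genes tested was 8.12%. Of the 43, 14 were above 0 and 29 below (median log2 fold change -0.19). Library totals moved this to 10 above and 33 below (median -0.51, when the median of all genes was -0.27). By group, 3 were above 0 and 5 below among phosphatidylserine genes, 2 and 11 among Rac and actin genes, 7 and 10 among phagosome genes and 2 and 3 among nucleases, where 49.2% of all genes tested were below. On the antisense strand 34 were tested, again with 0 past the threshold in edgeR and 0 called by DESeq2. At an unadjusted p under 0.05 in edgeR there were 2 of the 34, where the background was 5.26%. There 22 were above 0 and 12 below (median 0.19), where 51.8% of all genes tested were above. By group, 1 was above and 1 below among phosphatidylserine genes, 7 and 5 among Rac and actin genes, 13 and 4 among phagosome genes and 1 and 2 among nucleases. The 3 smallest sense p-values belonged to nrf-5, rab-14 and src-1. The gene nrf-5, whose secreted lipid-binding product helps transfer phosphatidylserine to engulfing cells, had 47, 62 and 10 sense counts in the double mutant and 15, 7 and 13 in the single mutant. Scaled values of nrf-5 did not overlap, although its raw counts did, and the log2 fold change was 1.89 ± 0.54 (SE; edgeR adjusted p = 0.592). Groups that lay apart in this direction made up 6.97% of the sense genes tested. The phagosome GTPase gene rab-14 and the Src-type kinase gene src-1 had log2 fold changes of -1.01 ± 0.50 and -0.91 ± 0.46 (edgeR adjusted p = 0.592 and 0.594).

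On the antisense strand the 3 smallest p-values of the wider list belonged to cyn-13, abl-1 and mom-5. The cyclophilin gene cyn-13, whose product interacts with CPS-6, had antisense counts of 25, 45 and 33 in the double mutant and 20, 18 and 11 in the single mutant. Every double mutant library lay above every single mutant library, as in 5.26% of the antisense genes tested, with a log2 fold change of 1.09 ± 0.39 (SE; edgeR adjusted p = 0.847). Antisense counts of abl-1, a kinase that restrains engulfment in the worm, were 59, 65 and 40 in the double mutant and 46, 10 and 26 in the single mutant, a log2 fold change of 1.08 ± 0.41 (edgeR adjusted p = 0.847). The Frizzled receptor gene mom-5, which acts upstream of CED-10, had 32, 34 and 18 in the double mutant and 58, 31 and 37 in the single mutant (-0.56 ± 0.30, edgeR adjusted p = 0.847). Across from abl-1 and mom-5 lie exons of other genes over 303 and 66 bases, so their antisense counts may hold sense reads of those genes. For comparison, of 12 core cell death pathway genes and regulators 5 were tested on the sense and 7 on the antisense strand. There were 0 past the threshold in edgeR and in DESeq2. At an unadjusted p under 0.05 in edgeR there was 1 of 5 on the sense strand, where the background was 8.12%. On the antisense strand there were 0 of 7, where the background was 5.26%. The 1 sense gene was ced-9, the cell death inhibitor gene, singled out after its values were seen. Its sense counts were 12, 13 and 10 in the double mutant and 44, 19 and 24 in the single mutant, with a log2 fold change of -1.03 ± 0.43 (edgeR adjusted p = 0.592).

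The profile of ced-5, the member with the highest normalised antisense count, was compared with those of the other 7296 antisense genes tested. Most alike over the 6 libraries were rpc-25, C18E9.2 and T10B5.3, with Pearson correlations of 0.995, 0.992 and 0.988 of log2 normalised counts. These 3 were picked as the highest of 7296 correlations. Antisense counts of rpc-25 were only 9, 16 and 10 in the double mutant and 7, 13 and 16 in the single mutant. Across from T10B5.3 lie exons of other genes over 568 bases, so its antisense counts may hold sense reads of those genes. In all, 155 genes had a correlation above 0.9 with ced-5, and all of them share the same 6 libraries, depth and scaling. C18E9.2 had 35, 69 and 46 antisense counts in the double mutant and 30, 54 and 59 in the single mutant, so that it followed ced-5 library by library at a lower count in each.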

How the data were processed

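The files deposited by the authors are 2 tables of 32238 genes, both holding unnormalised whole-number counts of reads, 1 column for each library. One table's name says antisense. The other names no strand and held 99.98% of the counts of 180 microRNA genes with no exon across from them, so it was read as the sense table. The submitters' processing notes name the build WBcel235, but aligner, counter and the handling of multiply mapped reads are not stated there or in the labels. Column names were paired with samples through genotype and replicate number. Sample titles carry other short names for replicates 2 and 3, so which of these 2 is which is uncertain, while the genotype is not.

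For each table edgeR 4.0.16 (R 4.3.3) was run with its filter on low counts (minimum count 10), TMM scaling, the robust quasi-likelihood test for genotype in the 6 libraries, Benjamini-Hochberg adjustment over all genes tested and a threshold of 0.05. The interaction test took both tables with library as a block. The SE is the size of the log2 fold change divided by the square root of F. The deposited gene width, in bases, served as length. Gene positions are those of the Ensembl gene models for WBcel235, and microRNA classes from the RefSeq gene table of the same build. Alternatives were DESeq2 1.42.0, other scalings, no filter, a replicate block and libraries left out. Procedures were run on simulated counts, where the check was on the median error of the log2 fold change. How often a change would be called at the low counts of these members is not reported here. Named were all 10 members, their partners and paralogs, both mutated genes, the 3 smallest p-values of the wider list in each table and the 3 genes most like ced-5 in profile. Of the core cell death genes, ced-9 was named after its values were seen. The members and lists were chosen with earlier results of these data known.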

Additional observations from a re-analysis of the deposited data

How the results depend on the processing

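None of the 10 genes was called on either strand or in the interaction test under any of the alternatives run. Of 347 recomputed values, fold changes and interactions together, 304 kept their direction and 43 turned, 24 of them with 1 library left out. On the sense strand 5 members turned at least once and on the antisense strand 6, and in the interaction ced-10, ced-12, psr-1 and cps-6 did. The cause was not tested. Library totals gave log2 fold changes of -0.11 for ced-6 sense, -0.065 for psr-1 sense and 0.0027 for ced-5 antisense counts, with interactions of 0.16 for psr-1 and 0.090 for cps-6. Scaling by microRNA counts gave -0.071 for ced-6 sense and 0.093 for ced-5 antisense. Without the filter psr-1 sense was -0.0090 and cps-6 antisense -0.012. The sense table's scaling gave 0.014 for ced-5 antisense and interactions of 0.14 for psr-1 and 0.070 for cps-6. Without the 2 microRNA-rich libraries ced-6 sense was -0.037, ced-5 antisense 0.020, psr-1 antisense -0.067 and wah-1 antisense -0.057, with interactions of 0.041 for ced-12 and 0.58 for cps-6. With 1 library left out at a time, sense values ran from -0.44 to 0.33 for ced-7, -0.39 to 0.082 for ced-10, -0.69 to 0.31 for ced-12 and -0.30 to 0.33 for psr-1. Antisense values ran from -0.10 to 0.47 for ced-1, -0.60 to 0.096 for ced-6, -0.33 to 0.12 for ced-5, -0.17 to 0.33 for psr-1, -0.11 to 0.23 for cps-6 and -0.10 to 0.27 for wah-1. Interactions ran from -1.41 to 0.091 for ced-10, -1.20 to 0.50 for ced-12, -0.58 to 0.67 for psr-1 and -0.66 to 0.25 for cps-6. Of the values that kept their sign, those moved over 1.5 times by 1 library, beside those given above, ran from -0.77 to -0.32 for ced-1 and 0.17 to 0.89 for ced-6 sense, 0.31 to 0.63 for ced-2 antisense, and, as interactions, 0.36 to 0.96 for ced-1, -0.71 to -0.12 for ced-7 and 1.01 to 2.12 for ced-2. Replicate numbers were not taken to pair the libraries: the correlation of same-numbered libraries' deviations was 0.646, 0.014 and -0.136 on the sense and 0.640, -0.022 and -0.034 on the antisense strand. The third double mutant and second single mutant library correlated at 0.538 and 0.552, but with numbers 2 and 3 exchanged in 1 genotype the last pair gave 0.047 and 0.032, so not every pair was over 0.1 in that order either. No block was run in the exchanged order, so a pairing of that kind was not tested. With same-numbered libraries as blocks, 0 members were called on either strand, and ced-5 antisense was 0.011. Over all genes, leaving out both microRNA-rich libraries moved the sense calls to 142 higher and 9 lower, and leaving out the third double mutant library moved the interaction calls to 25 higher and 43 lower. Other counts over all genes that moved were 6 higher sense genes without the third double mutant library, and interaction calls of 17 higher and 32 lower without both microRNA-rich libraries, 5 and 3 without the filter, and 3 and 6 without the first double mutant library. With no filter, 102 sense genes were called higher and 15 lower, and 89 antisense genes higher and 25 lower; DESeq2 on the filtered antisense genes called 1 higher and 7 lower, DESeq2 on all genes called 1 sense gene higher and 6 antisense genes lower, and the sense table's scaling called 1 antisense gene higher and 2 lower. The members had 28 to 296 sense and 39 to 680 antisense counts per gene over 6 libraries.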
